A study of Mus musculus with 2 samples.

Results

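Methylation at 9 genes of the trophoblast lineage, Elf5, Cdx2, Tead4, Gata3, Gata2, Hand1, Gcm1, Ets2 and Tpbpa, was read from a genome-wide bisulfite table of the mouse epiblast. The genes were chosen by name for their roles in the trophoblast, out of 49554 genes of the RefSeq gene table on the autosomes and the X, and all 9 were measured. The tissue was the epiblast of wild-type C57Bl6/J female (XX) embryos at embryonic day 6.5, from natural matings without embryo culture. It was dissected by hand, and sex was read by PCR on the extraembryonic tissue. The labels list 2 samples in this 1 group, with no treatment. Their counts were not kept apart by sample. Without replicate error, no test between groups was possible. There was no trophoblast sample, so every comparison is between places in the epiblast genome.

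The level of a region is the percent of its read counts that were methylated. Depth was a median of 6 reads per CpG over 21353092 CpGs of the autosomes and X, 89.2% of them covered, and 137430444 read counts gave a level of 66.3%. Parentheses hold 95% intervals by the exact Clopper-Pearson method. Such an interval covers counting error alone and treats counts as independent, although a read can span several CpGs and no molecular identifiers were given. In such a bulk tissue, an intermediate level cannot be told apart as partial methylation in every cell or as a mixture of cells, and some other cells may have remained after dissection. Coordinates are those of mm10.

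The trophoblast is the first lineage to separate from the rest of the embryo, and it builds most of the placenta. Tead4, a DNA-binding partner of Yap, acts upstream of Cdx2 and Gata3 in the outer cells of the blastocyst. Cdx2, Elf5 and Ets2 help to keep trophoblast stem cells dividing. Gata2 and Hand1 act in trophoblast giant cells, Gcm1 drives branching and syncytiotrophoblast formation in the labyrinth, and Tpbpa is a product of the spongiotrophoblast. The epiblast, which forms the fetus, does not normally make these placental cells. Elf5 is known as a gene whose promoter is methylated in embryonic cells and unmethylated in trophoblast stem cells. CpG islands, stretches dense in CpG, are usually free of methylation at gene starts, whereas CpG-poor starts are often methylated.

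The members' promoters differed in how many CpGs they offered to methylation, which the sequences show. RefSeq on GRCm38.p6, which shares its chromosomes with mm10, listed 9 starts for 7 of the 9 genes, and Hand1 and Tead4 had no entry. Below are the 250 bases before a start, 5′ to 3′ on the gene's strand, with each CpG in capitals. They show the CpG-poor starts of Elf5, Gcm1 and Tpbpa, the second listed start of Elf5, and Cdx2 and Ets2 as CpG-rich examples.
Elf5, first start, chr2:103411848-103412097, plus strand: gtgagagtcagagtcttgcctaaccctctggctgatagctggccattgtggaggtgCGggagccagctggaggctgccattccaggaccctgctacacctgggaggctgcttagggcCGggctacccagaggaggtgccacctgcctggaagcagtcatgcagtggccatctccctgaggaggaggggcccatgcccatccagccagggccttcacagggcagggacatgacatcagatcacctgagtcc
Elf5, second start, chr2:103423818-103424067, plus strand: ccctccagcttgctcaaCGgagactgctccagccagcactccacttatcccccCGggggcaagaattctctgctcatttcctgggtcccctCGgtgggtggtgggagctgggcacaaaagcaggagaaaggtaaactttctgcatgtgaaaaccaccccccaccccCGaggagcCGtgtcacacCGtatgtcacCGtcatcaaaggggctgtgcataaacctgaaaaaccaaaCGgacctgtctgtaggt
Gcm1, chr9:78051708-78051957, plus strand: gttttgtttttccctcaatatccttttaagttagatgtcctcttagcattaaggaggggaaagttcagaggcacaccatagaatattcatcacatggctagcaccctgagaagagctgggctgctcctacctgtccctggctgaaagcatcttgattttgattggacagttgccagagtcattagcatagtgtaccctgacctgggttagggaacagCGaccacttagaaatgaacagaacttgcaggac
Tpbpa, chr13:60941937-60942186, minus strand: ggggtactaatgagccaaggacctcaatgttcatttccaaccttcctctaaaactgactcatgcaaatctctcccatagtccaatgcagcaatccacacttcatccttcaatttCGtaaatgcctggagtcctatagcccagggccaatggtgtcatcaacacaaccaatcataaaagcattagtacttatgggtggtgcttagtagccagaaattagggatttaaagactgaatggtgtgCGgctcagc
Cdx2, chr5:147307250-147307499, minus strand: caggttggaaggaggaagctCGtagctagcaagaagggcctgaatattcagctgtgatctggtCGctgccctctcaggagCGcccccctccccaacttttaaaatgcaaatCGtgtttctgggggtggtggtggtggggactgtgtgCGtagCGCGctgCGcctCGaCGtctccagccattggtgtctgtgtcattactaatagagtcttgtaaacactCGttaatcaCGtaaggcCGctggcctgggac
Ets2, chr16:95702157-95702406, plus strand: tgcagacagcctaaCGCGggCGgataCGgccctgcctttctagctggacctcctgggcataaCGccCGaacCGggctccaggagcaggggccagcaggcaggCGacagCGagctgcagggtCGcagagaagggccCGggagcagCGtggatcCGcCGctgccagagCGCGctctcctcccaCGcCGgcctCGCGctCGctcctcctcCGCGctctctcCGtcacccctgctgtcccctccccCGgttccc

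These 250 bases held 2 CpGs at the first start of Elf5, 2 at Tpbpa and 1 at Gcm1. They held 8 at the second start of Elf5, 13 at Cdx2 and 25 at Ets2. Gata3 had 19, and the starts of Gata2 had 22 and 24. Over the 32851 promoters of the RefSeq table the median was 6 CpGs. Gcm1 had more CpGs than 7.87% of them, Elf5 (first start) and Tpbpa more than 18.8%, and Ets2 more than 89.3%.

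Among the printed starts, methylation within these bases fell as the CpG number rose, except at Gcm1. At the first start of Elf5, 27 of 33 read counts were methylated (81.8%), and its 2 CpGs stood at 94.1% and 68.8%. Tpbpa had 9 methylated of 13 (69.2%). The second start of Elf5 had 24 of 47 (51.1%), Cdx2 12 of 159 (7.55%) and Ets2 9 of 187 (4.81%). The intervals of Cdx2 and Ets2 overlapped, as did those of Tpbpa and the second start of Elf5. Of the starts not printed, Gata3 stood at 11.3%, above Cdx2, and those of Gata2 at 7.55% and 6.56%. The single CpG of Gcm1 had 0 methylated of 8 read counts, which allows a level of up to 36.9%. The 250 bp on either side of the Gcm1 start stood at 48.0% (27.8% to 68.7%), from 25 read counts.

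Starts were then measured over 1000 bp on either side and sorted by the number of CpGs within 500 bp on either side, as CpG-rich (at least 40), intermediate or CpG-poor (under 20). Low means that a start's whole interval lay under 20%, and high that it lay over 60%. The most upstream listed start was used. For Hand1 and Tead4 the gene end with more CpGs stood in for it. At the starts used, the split between members was complete. The second listed start of Elf5, given below, was neither CpG-poor nor high. All 5 CpG-rich starts were low, as were 92.4% of all CpG-rich autosomal protein-coding starts, of which 0.171% were high. All 3 CpG-poor starts were high, against 53.6% of all CpG-poor starts, of which 1.37% were low. The high calls of Gcm1 and Tpbpa depended on the setting, as given at the end. Hand1, the 1 member with an intermediate CpG number, was low, against 26.0% of its class, in which 21.8% were high. A start was listed for 15557 of the 19538 autosomal genes measured, and the richer gene end stood in for the rest.

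The CpG-rich members code for factors at the head of the lineage and for Gata2. Cdx2, a homeobox factor of the trophectoderm (chromosome 5, minus strand, start at 147307249), had the lowest level of the 9, at 6.32% (5.19% to 7.62%), with 102 methylated of 1613 read counts over 121 CpGs. Gata3, a zinc-finger factor that acts beside Cdx2 (chromosome 2, minus strand, 9878600), stood at 6.51% (4.92% to 8.40%). Ets2, needed by trophoblast stem cells (chromosome 16, plus strand, 95702407), stood at 8.15% (6.81% to 9.66%). The intervals of these 3 overlapped.

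Gata2, a regulator of placental hormone genes (chromosome 6, plus strand, 88193891), stood at 10.4% (8.91% to 12.1%). Tead4 (chromosome 6, richer gene end at 128300813) was alike, at 10.5% (8.93% to 12.2%). Both intervals lay above that of Cdx2. Among CpG-rich autosomal starts, whose median was 7.81%, 34.2% lay below Cdx2 and 70.9% below Tead4. All 5 members therefore lay well inside the range of their class.

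Hand1, a helix-loop-helix factor of giant cells that later acts in the heart (chromosome 11, richer gene end at 57832147), stood at 14.9% (12.8% to 17.2%), with 156 methylated of 1050 read counts. It had 32 CpGs within 500 bp, and its interval lay above those of the 5 CpG-rich members. The median of its class was 26.5%, and 23% of the class lay below Hand1. Its low call depended on the window, since 500 bp on either side gave 17.5% (13.8% to 21.9%), which crossed 20%.

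Elf5, an Ets-family factor of the stem cell circuit (chromosome 2, plus strand, first start at 103412098), had the highest start level of the 9. It stood at 77.1% (71.4% to 82.2%), with 189 methylated of 245 read counts over 28 CpGs. Tpbpa (chromosome 13, minus strand, 60941936) stood at 73.0% (60.3% to 83.4%) from 63 read counts. Gcm1, a GCM-domain factor (chromosome 9, plus strand, 78051958), stood at 71.0% (63.1% to 78.0%) from 155. The 3 intervals overlapped one another, so their order is not resolved at this depth. The median of CpG-poor starts was 71.8%, and 69.3% of them lay below Elf5, 53.9% below Tpbpa and 46.9% below Gcm1.

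The median of the CpG-poor members was 64.9 points above that of the CpG-rich members (73.0% against 8.15%). Taking the extremes of the intervals of the median genes, Tpbpa and Ets2, the gap was 50.7 to 76.6 points. Over all autosomal protein-coding starts the same gap was 64.0 points. The members thus divided by CpG number about as much as genes at large did.

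**Figure D1:**
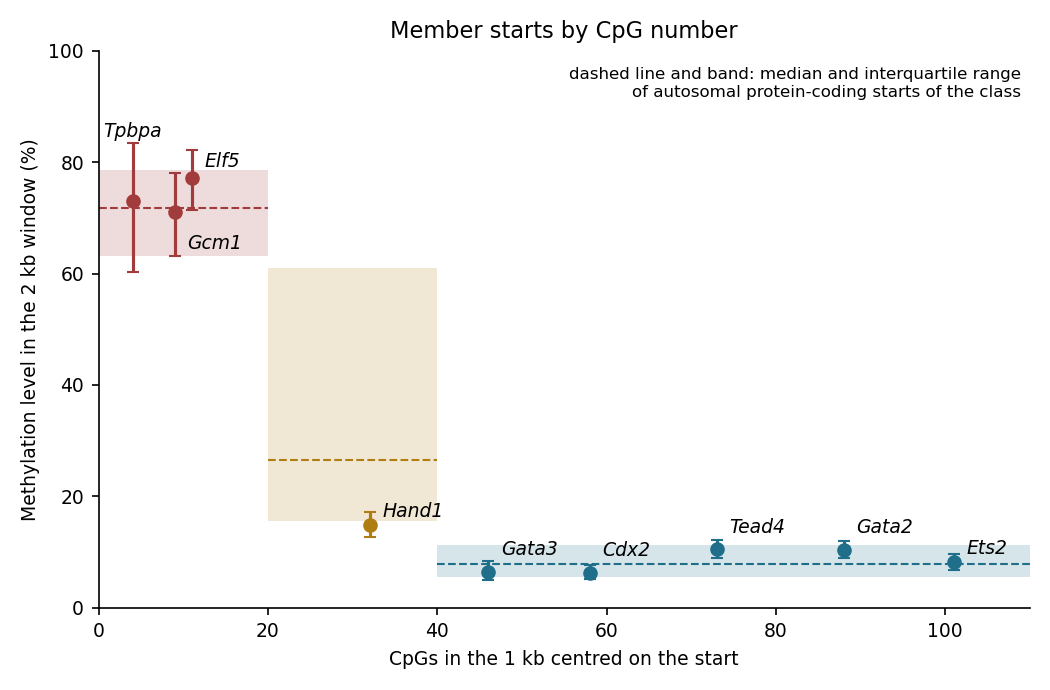
Methylation level of the 1000 bp on either side of each start (percent, vertical axis) against the number of CpGs within 500 bp on either side (horizontal axis). Points are the 9 genes with 95% intervals, and dashed lines and bands are the median and interquartile range of autosomal protein-coding starts of each class. The 3 genes with the fewest CpGs sit at 71.0% to 77.1% and the other 6 at 6.32% to 14.9%.

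Single CpGs with at least 5 reads showed the same division. At Cdx2, 105 of 111 such CpGs had a level of 20% or less, and 42 had no methylated read. At Gata3 it was 65 of 67, at Ets2 110 of 122, at Tead4 93 of 107 and at Gata2 100 of 112. Ets2 had the most CpGs without a methylated read, 60. Hand1 had the smallest such share of the low starts, with 52 of 72 at 20% or less and the other 20 between 20% and 80%.

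At Elf5, 0 of 25 single CpGs were at 20% or less, 11 were at 80% or more and 14 lay between, with a median of 75%. Gcm1 had 8 of 16 at 80% or more and 1 at 20% or less. Tpbpa had only 7 CpGs with 5 reads, 2 of them at 80% or more. Between 20% and 80% lay 7 CpGs of Gcm1 and 5 of Tpbpa. The low starts were thus mostly unmethylated from one CpG to the next, while the high ones had CpGs at 80% or more and CpGs between 20% and 80%. With so few reads per CpG, counting error alone spreads single levels. Whether the CpGs of a start truly differed was not tested.

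**Figure D2:**
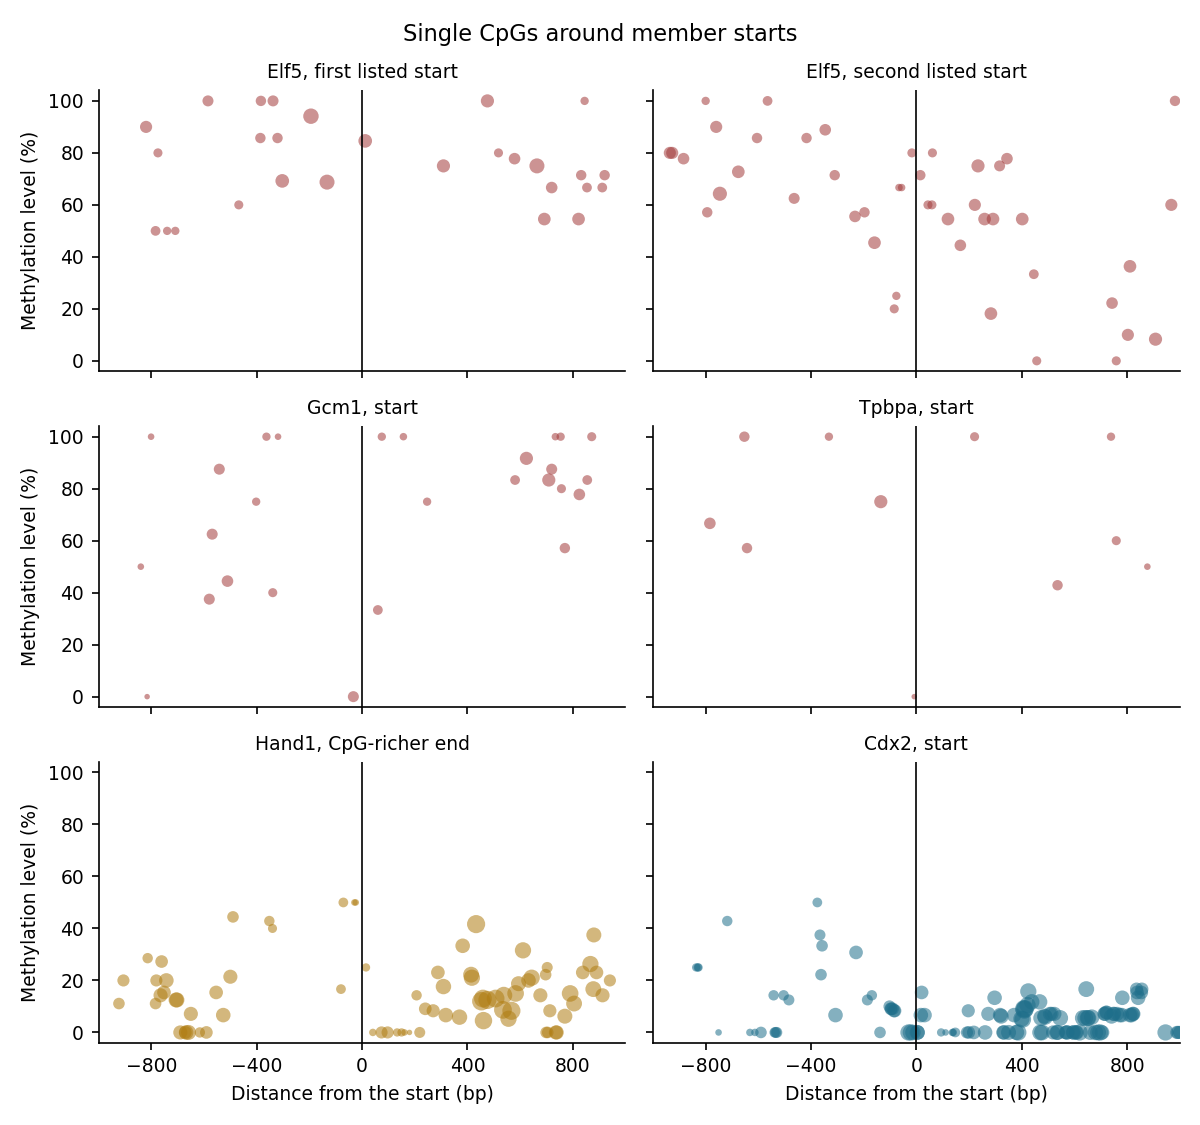
Level of single CpGs (percent, vertical axis) by distance from the start in bp (horizontal axis, gene direction) at both starts of Elf5, at Gcm1, Tpbpa and Cdx2, and at the richer end of Hand1, with the area of a point growing with its read counts and colour giving the CpG class of the gene. Points crowd near 0 in Cdx2, and at the first start of Elf5 none lies at 20% or less, while at the second start they mostly fall from left to right.

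Methylation varied along the 2000 bp of several members. In Gcm1 the 500 bp before the start stood at 47.8% (26.8% to 69.4%, 23 read counts), while the bases from 500 to 999 after it stood at 84.4% (74.4% to 91.7%). Within 500 bp on either side Gcm1 stood at 57.5%, at which it was no longer called high. In Tead4 the bases between 1000 and 500 before the gene end stood at 51.0% (40.8% to 61.1%), against 8.05% in the next 500 bp. Ets2 stood at 30.3% and Gata2 at 36.6% at the same distance, while Cdx2 stood at 11% and Gata3 at 5.41%. Hand1 had its highest value, 35.3% (22.4% to 49.9%), in the 500 bp before the gene end.

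A second start was listed for both Elf5 and Gata2. The second start of Elf5, at 103424068 and inside the gene, had 28 CpGs within 500 bp and stood at 58.2% (53.0% to 63.3%), below the interval of the first start. There the level fell in gene direction, from 78.4% (68.4% to 86.5%) between 1000 and 500 bp before it, to 61.5%, 55.1% and then 32.8% (21.6% to 45.7%) at 500 to 999 bp after it. After this dip, the window 13000 bp after the first start (chr2:103425098-103425597) stood at 91.1% (82.6% to 96.4%), but the next one at 55.9% (43.3% to 67.9%). Of 41 single CpGs around the second start, 6 were at 20% or less, 10 at 80% or more and 25 between. The second start of Gata2, at 88198664 and with 69 CpGs within 500 bp, stood at 10.7% (9.17% to 12.4%), close to the 10.4% of its first start.

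Of 8 measured gene ends away from the start, 6 were high, from 69.6% at Gata2 to 84.7% (78.9% to 89.3%) at Elf5. Of all such autosomal protein-coding gene ends 71.8% were high, so the members' share was near the background. The other 2, of Cdx2 and Hand1, were low, as were 3.15% of all. The other end of Cdx2 stood at 14.9% (11.7% to 18.6%), above its start at 6.32%, and that of Hand1 at 12.9% (11% to 15.0%), near its richer end at 14.9%. Only 12 read counts fell on the other end of Tpbpa, which was not measured. The record of Gata3 also extends upstream of its listed start, and its far end there stood at 17.4% (12.4% to 23.4%).

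Each locus was then read from 10000 bp before the gene to 10000 bp after it. The loci of Cdx2, Gata2, Hand1 and Gata3 lay below most of their class. Cdx2 stood at 15.2% (14.4% to 16.1%) over its locus, and 0.848% of loci with CpG-rich starts were lower. Gata2 stood at 22.7%, with 2.60% of that class lower, and Gata3 at 30.5%, with 6.32% lower. Hand1 stood at 27.2%, and 2.39% of loci with intermediate starts were lower. The class medians were 56.9% and 64.7%.

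The other CpG-rich genes had ordinary loci around their low starts. Tead4 stood at 66.8%, with 78.1% of its class lower, and Ets2 at 56.8%, with 49.6% lower. The CpG-poor genes had Elf5 at 76.5% (75.3% to 77.6%), Gcm1 at 72.9% and Tpbpa at 70.9%, around a class median of 70.3%. For Tpbpa only 59.0% of the CpGs of the locus had a read, with a mean of 2.90 reads per CpG, while the other 8 loci had 97.4% to 99.5%.

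**Figure D3:**
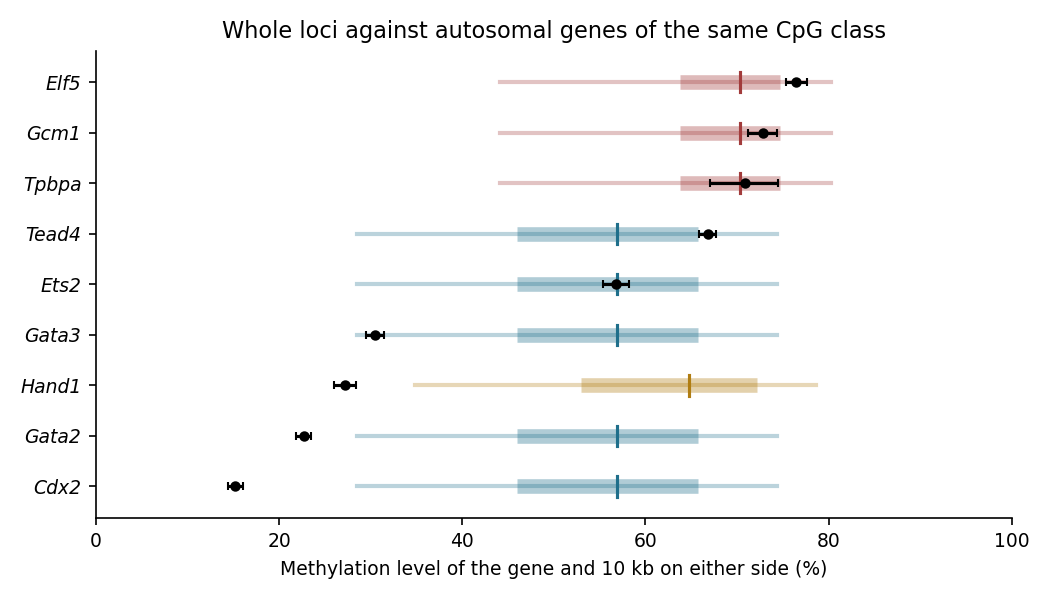
Level of each gene's locus (percent, horizontal axis; 1 row per gene), with the member in black with its 95% interval, and for its CpG class the median (tick), quartiles (thick bar) and 5th to 95th percentiles (thin bar). Cdx2, Gata2 and Hand1 lie below most of their class over the whole locus, at 15.2%, 22.7% and 27.2%.

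The same genes stood apart upstream of the start, at 1000 to 10000 bp from it. Gata3 stood at 12.7% (11.4% to 14.2%), Cdx2 at 16.7%, Gata2 at 22.5% and Hand1 at 29.7%. The other 5 ranged from 67.4% at Gcm1 to 79.1% at Tpbpa, and the median of CpG-rich starts was 71.2%. Only 0.596% of that class was lower than Gata3 there, and 1.63% lower than Cdx2.

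Gene bodies beyond 1000 bp from the start gave 189 methylated of 1890 read counts for Cdx2 (8.68% to 11.4%), 17.7% for Hand1 and 17.9% for Gata2. Gata3 had an intermediate body at 48.5%, and Ets2 had the highest at 86.2% (84.6% to 87.7%). Tead4 at 76.6% lay next to the median of all autosomal bodies, 76.7%, and Elf5 was at 72.7%. Ets2 thus held a low start of 8.15% and the most methylated body of the 9. In the 10000 bp beyond the other end, Gata3 stood at 74.6% and Gata2 at 70.9%, so their lower levels were not found on that side. Cdx2 stood there at 27.7% (25.6% to 29.8%) and Hand1 at 36.5% (34.3% to 38.8%), and the remaining 5 at 65.6% to 85.2%.

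Of 759 windows of 500 bp across the 9 loci, 476 were measured, which took 20 or more read counts over 5 or more covered CpGs. Of these, 63 (13.2%) were low, against 3.01% of all autosomal windows, and 208 (43.7%) were high, against 60.8%. The low windows were unevenly shared. Gata3 had 18 low of 81, Cdx2 16 of 43, Gata2 15 of 52, Hand1 7 of 34, Tead4 4 of 105 and Ets2 3 of 46. Elf5 had 0 low of 70, Gcm1 0 of 40 and Tpbpa 0 of 5. Elf5 had 45 high windows.

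**Figure D4:**
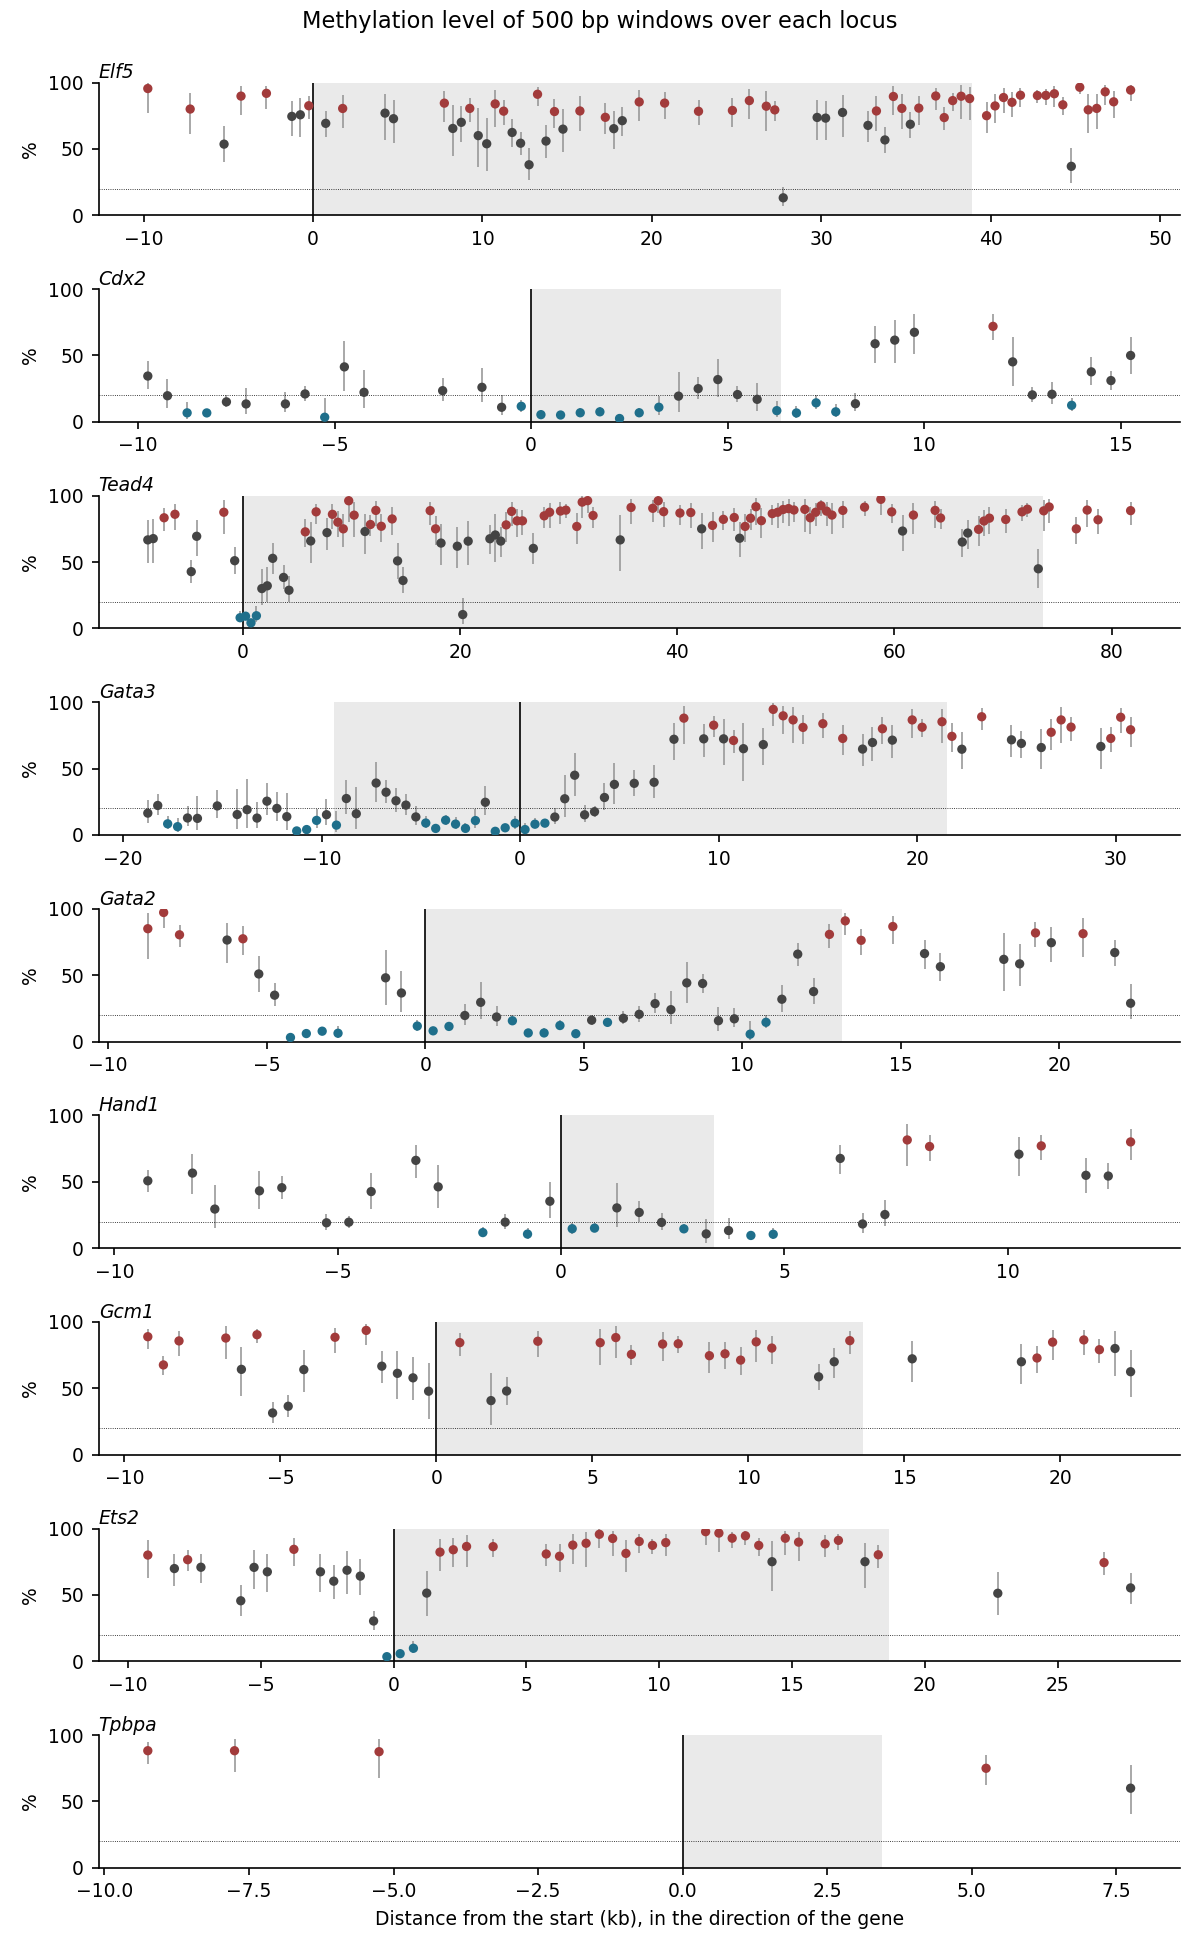
Level of 500 bp windows (percent, vertical axis) along each locus in gene direction, with 95% intervals as bars, the gene shaded grey, the start as a vertical line and 20% dotted. Blue windows were called low, red ones high and dark grey ones neither, and the low windows spread widely in Cdx2, Gata3 and Gata2 but stay at the start in Ets2.

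The run of neighbouring windows under 20% around the start was 5000 bp at Cdx2, wider than at 98.4% of CpG-rich starts, whose median was 1500 bp. At Gata3 it was 3500 bp, wider than 94.8%. Tead4 and Gata2 had 2000 bp, Ets2 1500 bp and Hand1 1000 bp.

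The lowest window of most CpG-rich genes lay within a few windows of the start. At Cdx2 it lay inside the gene, 2000 bp after the start (chr5:147304750-147305249), at 2.49% with 9 methylated of 361 read counts, and 24 of its 33 CpGs had no methylated read. A window 5500 bp before Cdx2, at 3.45%, rested on 29 read counts, all on the plus strand. Gata3 was lowest at 1500 bp before its start (chr2:9879601-9880100), at 2.75%, and again at 11500 bp before it, beyond the gene record, at 3.03% (7 of 231). Tead4 was lowest just inside its gene end, at 4.17%, and on its other side, at 8.05%. Ets2 had its 2 lowest windows on either side of the start, at 3.45% and 5.71%.

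Gata2 was lowest away from its start. The window at 4500 bp before it (chr6:88189391-88189890) stood at 3.06% (1.85% to 4.74%), with 19 of 621, inside the long noncoding RNA Gm38708. Its next lowest, 10000 bp after the start and inside Gata2, stood at 5.56% from 54 read counts. Hand1 was lowest beyond its other end, 4000 bp from its richer end (chr11:57827648-57828147), at 9.54% (7.16% to 12.4%), with the neighbouring window at 10.4%. Both lay outside any listed gene.

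Besides the dip after its second start, Elf5 had another inside its methylated body, which held its lowest window. The window 27500 bp after its first start (chr2:103439598-103440097) stood at 13.1% (7.18% to 21.4%), with 13 methylated of 99 read counts over 12 CpGs. Its interval crossed 20%, so it was not called low. Of its CpGs 6 had no methylated read, and both strands were low, at 11.8% and 13.8%. The window before it stood at 79.4%, and the one after it was not measured. The gene table gives only the bounds of a gene, so whether the window is exonic or intronic is not known here. Its next lowest window lay in the neighbouring gene Cat, which codes for catalase, and stood at 36.8%, but with 81.8% of 11 counts on the plus strand and 26.1% of 46 on the minus strand.

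Gcm1 was lowest 5500 bp before its start (chr9:78046458-78046957), at 31.4% (23.9% to 39.8%), with the next window at 36.5% (28.7% to 44.8%). Tpbpa was lowest in the neighbouring gene Ctla2a, with 18 methylated of 30 read counts (40.6% to 77.3%), and next, also in Ctla2a, at 75%. Neither gene had a measured window under 20%.

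The CpG-dense regions of the loci, stretches with at least 20 CpGs per 500 bp, gave 32 regions, of which 31 were measured and 22 were low. Of all such autosomal regions, whether near a gene or not, 36.9% were low. Gata3 had 9 regions, 7 of them low, Cdx2 6 with 4 low, Hand1 6 with 5 low, and Gata2 4 with 4 low. The longest was in Gata2, 4700 bp that start 2200 bp after the first start and include the second, at 11.9% (422 of 3546). In Gata3 a 2700 bp region upstream, overlapping the long noncoding RNAs 4930412O13Rik and 9230102O04Rik, stood at 10.5% (8.77% to 12.5%).

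The lowest dense regions of the Gata3 locus lay beyond the gene record, at 3.28% and 3.45%. Cdx2 had low regions at 5.93% in its body, at 11.3% beyond its other end and at 10.3% upstream in Urad, a gene of uric acid breakdown. Its regions at 17.6% and, in Gm35112, 18.7% were not resolved. Gata2 had a region at 6.17% upstream, in Gm38708. A further region at the Cdx2 start stood at 6.13%. The other low regions of Gata3 stood at 5.11% across the start, 6.95% and, far upstream, 6.67%, and within the first 2022 bp of the gene 1 stood at 9.0%, followed by an unresolved one at 20.3%. The other 2 of Gata2 stood at 9.81% at the first start and 13.9% near the other end. In Hand1 the region at the richer end stood at 15.5% and the one inside the gene at 15.8%. The region beyond its other end stood at 9.96%, and those upstream, all in the noncoding RNA Gm32915, at 12.3%, 15.1% and an unresolved 19.5%. The dense region at the Ets2 start stood at 8.01%.

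Dense regions were not low everywhere. In Gata3 1 region 19923 bp after the start stood at 80.6% (73.1% to 86.7%), and in Ets2 1 region 16500 bp after the start stood at 91.1% (84.2% to 95.6%). Both lay inside their genes. Of all autosomal dense regions 41.5% were high and 7.37% intermediate, with the interval within 20% to 60%. Gcm1 had 2, both upstream, an intermediate one at 44.2% (38.8% to 49.8%) and a high one at 69.8% (62.8% to 76.2%). Tead4 had only the dense region at its gene end, at 7.5%, and Elf5 had none. Of the 2 near Tpbpa, both in Gm40976, 1 had no reads and the other stood at 87.5% from 72 read counts.

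Paralogs of the members, which code for related proteins, were read at their own starts by the same rules. Of 18, 17 were measured, and 8 were low and 3 high, with a median of 18.3%. Of all autosomal protein-coding starts 56.5% were low and 18.8% high. For Ehf, Cdx1, Tead1, Gata4, Gata6 and Ets1 the richer gene end stood in for a start. Among relatives of Elf5, Elf2 stood at 2.52%, Elf1 at 2.90%, Elf4 on the X at 18.3%, Elf3 at 20.4% and Ehf at 45.7% (38.8% to 52.7%), all below the 77.1% of Elf5. Elf1 and Elf2 had over 100 CpGs within 500 bp, and Ehf had 16.

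The TEAD factors were all low, with Tead1 at 2.48%, Tead3 at 7.70% and Tead2 at 13.2%, around Tead4 at 10.5%. Cdx1 stood at 18.5% and Cdx4, on the X, at 27.4% (23.8% to 31.2%), both above Cdx2. Hand2, a heart and limb factor, stood at 5.52% (4.40% to 6.82%), below Hand1. Ets1, an Ets factor of lymphoid cells, stood at 33.9% (26.9% to 41.5%), above Ets2. Gcm2, a factor of the parathyroid, stood at 67.3% (60.6% to 73.5%), and its interval overlapped that of Gcm1. Tpbpb had only 20 read counts over too few CpGs to be measured.

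The GATA family was divided. Gata6 stood at 10.7% and Gata5 at 11%, beside Gata2 and Gata3. Gata1, a factor of red blood cells on the X, stood at 67.2% (61.2% to 72.8%). Gata4, an endoderm and heart factor, stood at 83.8% (75.8% to 89.9%), with 14 CpGs around its richer gene end. Both high paralogs of this family were CpG-poor, but Gata4 was read at its richer gene end, which need not be its start.

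Other genes of the trophoblast and of neighbouring lineages were set beside the members. Of the genes named from these lists, Peg10, Rtl1, Gata4, Zic2 and Lefty2 had no listed start and were read at their richer gene end, which need not be the start. Of 25 other trophoblast regulators 18 were low and 0 high, with a median of 10.4%, and 16 were CpG-rich and 0 CpG-poor. The lowest were Ovol2 at 2.66% and Sox2 at 2.77%, and the highest were Esrrb, an orphan nuclear receptor, at 54.5% and Plet1 at 53.5%. Placental effector genes, such as hormones and proteases, were mostly CpG-poor, 11 of 14 measured, and had a median of 64.6%, with 1 low and 3 high. Flt1, a receptor for vascular growth factors, was lowest at 5.46%, then the imprinted Peg10 at 34.0%, and Rtl1 at 82.4% and Ctsq at 77.0% were highest. The 9 members thus spanned both kinds, with Cdx2 near the first list and Tpbpa near the second. The factors Elf5, at 77.1%, and Gcm1, at 71.0%, lay above every gene of the first list, which held 0 CpG-poor genes.

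Of 18 extraembryonic endoderm genes 8 were low and 4 high, with a median of 30.8%, from Col4a1 at 6.60% and Fgfr4 at 8.79% to Hnf4a at 74.3% and Gata4 at 83.8%. Of 17 epiblast genes 12 were low and 0 high, with a median of 7.08%. Sox2 and Zic2 were lowest, at 2.77% and 4.52%, and Lefty2, a Nodal antagonist, and Nanog were highest, at 62.9% and 36.3%. The median of all autosomal protein-coding starts was 13.2%, with 56.5% low and 18.8% high.

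**Figure D5:**
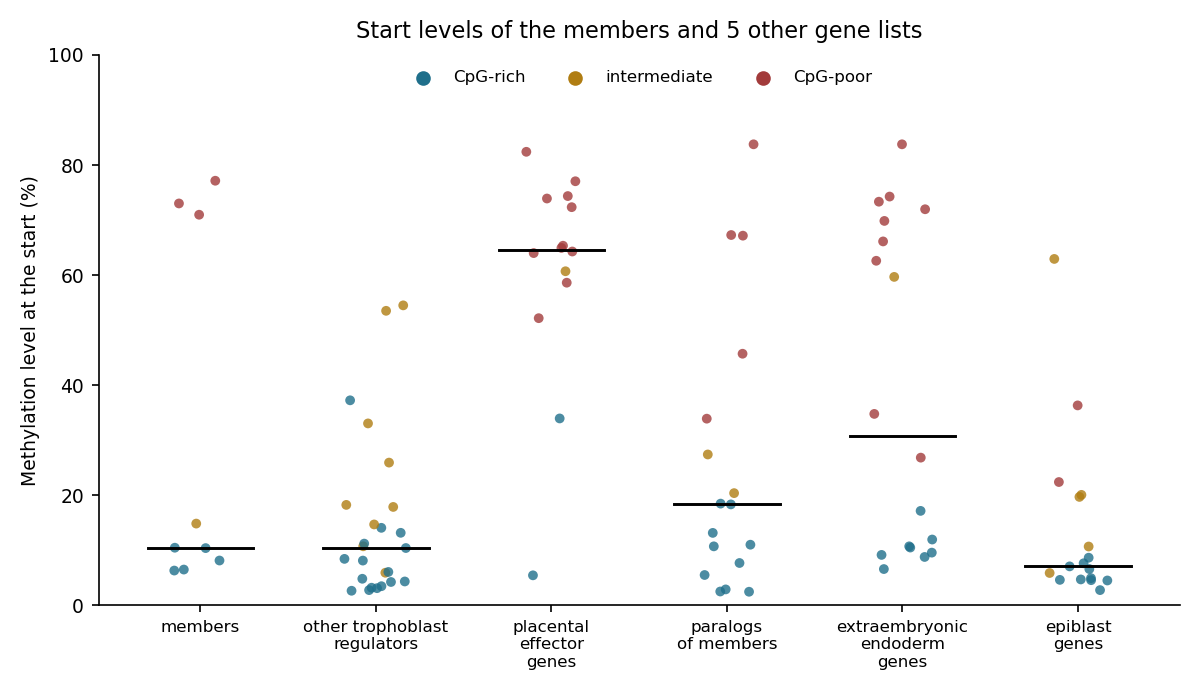
Start levels (percent) of single genes in the members and in the 5 other lists, coloured by CpG class, with a black line at the median of each list. Every start called high in these lists is CpG-poor, and the other trophoblast regulators end at 54.5%.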

How the data were processed

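The authors deposited counts, a methylated and an unmethylated read count for each strand of every CpG. Per the submitters' processing notes, the build was mm10 and the tools named, without role or order, were Bowtie2 2.1.0, Bismark 0.12.5 and cutadapt 1.3. The columns carry no sample names, and the table was treated as both samples pooled. The way of pooling, duplicate removal and filters were not given in the sources used here, and duplicates left in would narrow the intervals.

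From the counts, both strands of a CpG were added, and levels were computed as percent with exact Clopper-Pearson 95% intervals (scipy 1.17.1, Python 3.11.15, numpy 2.4.6, pandas 2.3.3). A region was measured from 20 read counts and 5 covered CpGs upward. An interval within 20% to 60% was called intermediate, and one that crossed a threshold unresolved. Gene positions, starts and promoter sequences came from RefSeq (GRCm38.p6). All 116 CpGs read from the members' promoter sequences were found at the table's positions. For dense regions, 500 bp windows were moved by 100 bp, and overlapping ones that held 20 CpGs or more were joined. The code was tested on simulated data.

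The members and lists were chosen with earlier results of these data known. Named were all members, the 2 lowest windows and every dense region of each locus, all paralogs, and the 2 highest and 2 lowest of each other list. The single CpGs, the windows next to the lowest ones and the 500 bp portions of the start windows were added after the data were seen.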

Additional observations from a re-analysis of the deposited data

How the results depend on the processing

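No paired analysis was possible because the table holds no column per sample, and for the same reason leaving out each replicate could not be run. Of the recomputed summary values 28 stayed close to the reported ones (counts within 1.5 times) and 5 did not. With 250 bp either side of the start, the gap between CpG-poor and CpG-rich members was 40.3 points, from the 1 CpG-poor gene then measured, Gcm1. Other settings gave 57.6 to 69.4 points. With low defined by an upper bound under 10%, 3 members and 18 windows were low, and with one under 30%, 98 windows were. With 250 bp either side of the other gene ends, a setting added after the data were seen, 2 of 4 measured ends were high. Without Hand1 and Tead4, also added, 4 of 7 members were low. Gcm1 stood at 48.0% to 74.0% over the settings, and its high call was lost with the narrower windows. The low call of Hand1 was lost with 500 bp (17.5%) and 250 bp (11.2%) either side, which left 5 members low. In the setting that took the gene end with more CpGs, Gata3 stood at 74.0%, far from its listed start. Its gene ends tied at 16 CpGs within 500 bp, and the end with the lower coordinate was taken. The other end stood at 17.4%. Tead4 stood at 23.7%, no longer low, over the 1000 bp upstream alone. Depth limits Tpbpa most, with 63 read counts at its start, where the lower bound of 60.3% was just over 60%. From minus strand reads only, Tpbpa stood at 65.5% of 29 read counts. With 500 bp either side it had 4 covered CpGs, too few to be measured, so its high call was lost.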
